A study of Mus musculus with 15 samples.

Results

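Complement and coagulation are the 2 protein cascades that the liver supplies to blood plasma, and the 39 genes described here encode their proteases, cofactors, pore proteins and inhibitors. They were chosen by name, from mouse symbols matched to Ensembl identifiers, out of 56953 genes listed for each library. Earlier results of these data were known at that point, so comparisons with the share of all genes are descriptive. All 39 were matched and all 39 passed a filter on low counts that kept 17975 genes for testing. RNA came from primary mouse hepatocytes in 15 libraries. WT mice had been given mineral oil (n = 4 libraries) or carbon tetrachloride (CCl4, n = 3), and mice carrying the ΔEGFR transgene had been given mineral oil (n = 4) or CCl4 (n = 4). CCl4 is a liver toxin used to cause fibrosis in mice, and mineral oil is the liquid it is dissolved in. A transgene of this name is known as a truncated epidermal growth factor receptor without kinase activity, but the labels describe neither the allele nor the promoter that drives it, nor the dose, duration or age. The title of the series concerns the role of this receptor's pathway in the fibrotic liver.

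Complement is started by recognition proteins (C1 and the mannose-binding lectins), whose proteases cut C4 and C2 into an enzyme that splits C3. The alternative route uses factor B for the same step, and both routes end in a pore built from C5, C6, C7, C8 and C9. Clotting runs through proteases that need vitamin K to bind membranes, through the cofactors V and VIII and through the contact system, and it is held in check by protein C, protein S and tissue factor pathway inhibitor. Hepatocytes make most of these proteins, whereas factor VIII and tissue factor pathway inhibitor are known mainly from endothelial cells.

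The promoters of C6, F9 and Susd4 are shown because C6 and F9 had the lowest p for the CCl4 difference among the pore genes and among the vitamin K-dependent clotting factors, and because Susd4, picked after its values were seen, had the largest fold. The sequences come from RefSeq on build GRCm38.p6 and cover the 250 bases before each start site, read 5′ to 3′ on the + strand. Capitals mark motif matches.
C6, chr15:4726960-4727209: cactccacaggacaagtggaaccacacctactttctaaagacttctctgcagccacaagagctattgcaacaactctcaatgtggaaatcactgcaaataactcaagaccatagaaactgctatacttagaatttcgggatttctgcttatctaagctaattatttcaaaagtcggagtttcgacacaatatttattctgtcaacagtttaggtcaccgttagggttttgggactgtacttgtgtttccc
F9, chrX:59999214-59999463: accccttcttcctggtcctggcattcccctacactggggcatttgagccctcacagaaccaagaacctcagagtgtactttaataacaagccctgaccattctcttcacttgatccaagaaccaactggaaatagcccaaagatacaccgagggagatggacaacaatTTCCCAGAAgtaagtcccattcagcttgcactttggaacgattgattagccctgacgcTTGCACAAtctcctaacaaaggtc
Susd4, chr1:182763966-182764215: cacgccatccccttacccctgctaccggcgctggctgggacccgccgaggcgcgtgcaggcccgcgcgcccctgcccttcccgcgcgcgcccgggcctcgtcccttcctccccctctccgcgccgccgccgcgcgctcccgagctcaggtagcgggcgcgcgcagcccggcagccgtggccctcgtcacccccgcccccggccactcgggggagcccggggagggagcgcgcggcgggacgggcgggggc

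Motifs of 4 factors known from liver promoters were searched on both strands in windows of 300 bases, 250 before and 50 after each start. The table held 35 windows for 31 of the 39 genes and 32851 windows in all. The HNF1 half-site GTTAAT was in 25.7% of the windows of these genes and 7.1% of all windows, and its carriers included C8a, C8b, Hc, F2 and Proz. TTGCNNAA, a C/EBP motif, was in 28.6% against 10.8%, among them C3, C9, F9, Klkb1 and Hrg. TTCNNNGAA, a STAT3 motif, was in 17.1% against 8.3%, and CAAAGTCCA, an HNF4 motif, was in none against 0.475%. In F9 the STAT3 match began 82 bases before the start, at -82, and the C/EBP match at -24, and the C6 window held none of the 4 motifs. Susd4 had 2 windows in the table, from separate start sites, and the one with more CpG is shown. Over its whole 300 bases that window was 81.3% G and C with 50 CpG pairs, and the other was 63.7% with 12, against a median of 5 CpG in the windows of these genes and 7 in all windows. Median G and C content was 49% in the windows of these genes and 52.7% in all windows. The upper quartile of CpG was 6 against 20, and the motif shares were not adjusted for base content. A match is a string of letters and does not show that a factor binds there.

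Library totals ran from 51.73 to 155.39 M counts (M, mega), in a lower range (51.73 to 61.89 M, 6 libraries) and a higher one (96.17 to 155.39 M, 9 libraries). The lower range held 3 of 4 WT mineral oil, 2 of 3 WT CCl4, 0 of 4 ΔEGFR mineral oil and 1 of 4 ΔEGFR CCl4 libraries. Hepatocyte markers were present throughout: the lowest value of any of 16 markers was 226 TPM (transcript abundance scaled to a fixed total and to length), for Fah. Markers of other cells were present too. The summed TPM of 19 macrophage markers was 60.4 to 2270 in mineral oil and 3380 to 12700 in CCl4, and 13 of the 19 were called higher in CCl4 on average over the genotypes, against 12% of all tested genes. For 14 stellate cell markers it was 15.4 to 117 and 92.5 to 469 (6 higher), and for 14 endothelial markers 38.7 to 492 and 210 to 555, where the 2 called higher are a share near that of all genes. None of these 3 lists was without signal, since Acta2 in 1 library was their only zero. WT mineral oil replicate 1 stood apart, with a summed neutrophil level of 5410 TPM against at most 1120 in any other library. It was the lowest of its group for 36 of the 39 genes. Nothing in the labels says whether libraries of a group came from different animals, so each p-value reflects only how these libraries vary, which may be technical variation.

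With CCl4 most genes of both cascades were lower. Averaged over the genotypes (8 mineral oil and 7 CCl4 libraries), 35 of the 39 genes were lower and 0 were higher in edgeR's quasi-likelihood test at an adjusted p under 0.05, against 15.1% of all tested genes lower and 12% higher. Their median log2 fold change was -1.09, a 2.13-fold reduction, and the median of all tested genes was -0.02. The 4 genes not called were Mbl2, C3, F8 and Tfpi, the last with a fitted value above 0. Of the 35, 24 were also called under each of 24 other settings of the scaling, filter, model, tool and left-out library, among them all 6 pore genes. Of these 24, C2, F7, F13b, Kng1 and Proc were not called on the hepatocyte marker scale given next. In bulk RNA, fewer cells of a type and less RNA per cell cannot be told apart.

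**Figure D1:**
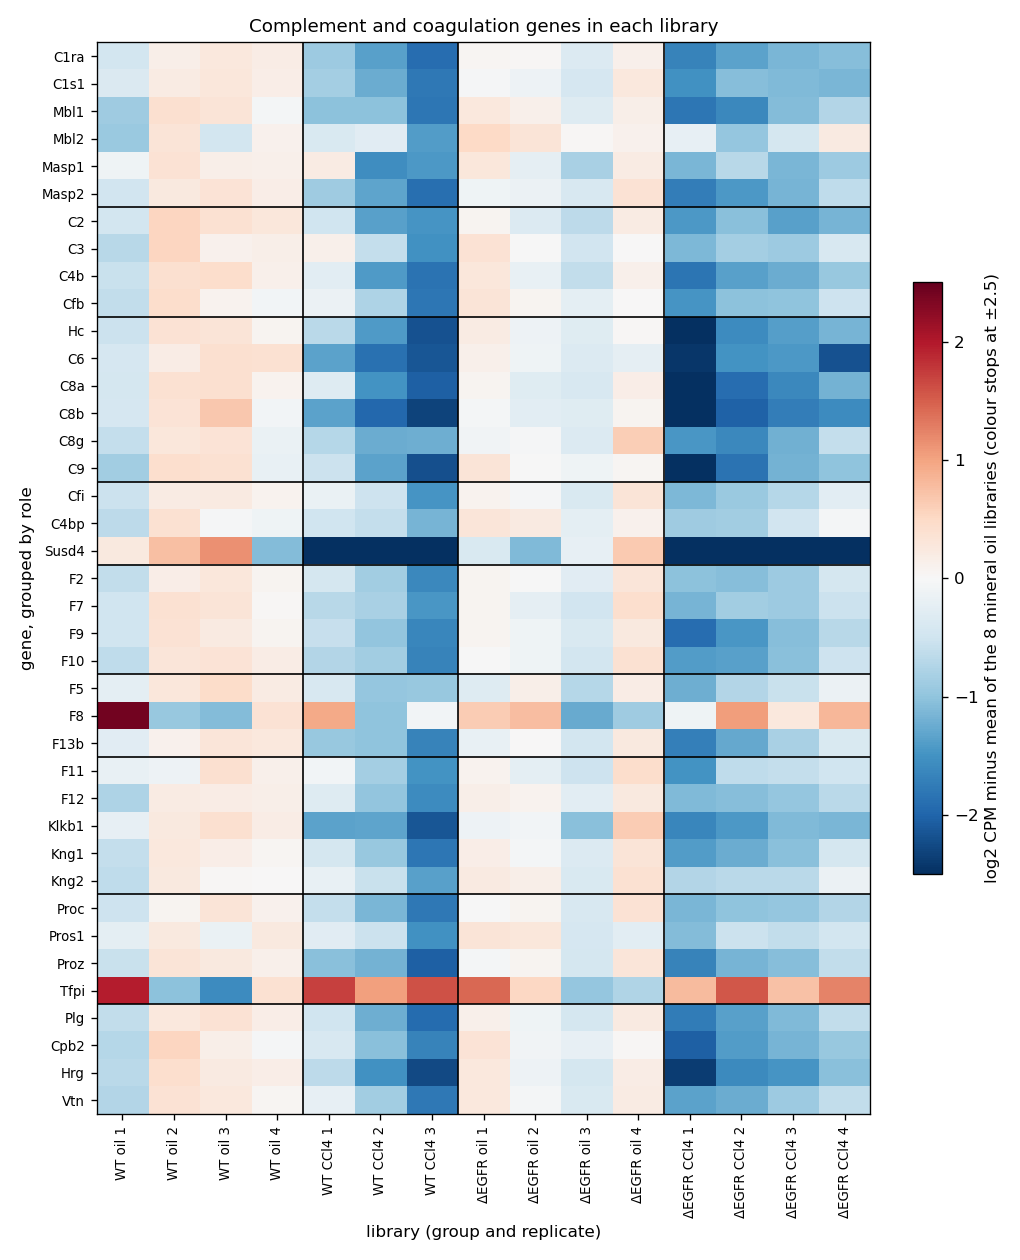
Each row is a gene, grouped by role from complement recognition (top) to fibrinolysis (bottom), and each column a library; colour gives the log2 difference in CPM (counts scaled to a fixed library total) from the mean of the 8 mineral oil libraries. Nearly every row is blue in the 7 CCl4 columns, Susd4 lies beyond the colour range there, and F8 and Tfpi are the rows that differ.

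The size of the difference depended on what it was measured against. The scaling used here (trimmed mean of M values, TMM) left the median gene at -0.02 and 44.3% of all called genes higher. Without scaling factors the median of all genes moved to 0.43 and 86.7% of called genes were higher. Even so, 27 of the 39 genes were lower and 0 higher, against 4.91% and 32% of all genes, and the median of the 39 was -0.66. Scaling to the geometric mean of 16 hepatocyte markers, a setting added after the data were seen, moved the median of all genes to 0.79. On that scale 19 of the 39 were lower and 0 higher, against 2.16% of all genes lower, and their median was -0.30. The calls came from 6 of 6 pore, 4 of 6 recognition and 1 of 4 C3-splitting genes and 1 of 3 complement inhibitors. Their medians were -0.70, -0.44, -0.22 and 0.10. Clotting roles gave 2 of 4 vitamin K-dependent factors, 0 of 3 cofactors and crosslinker, 1 of 5 contact and 1 of 4 anticoagulant genes. Medians there were -0.17, 0.12, -0.12 and -0.08, and the fibrinolysis and matrix genes gave 3 of 4 (median -0.38). Differences between roles were not tested. The hepatocyte markers themselves had a median of -0.79 under TMM, with 11 of 16 lower, and on the second scale a value of 0 means a change equal to theirs. The 13 of 19 macrophage and 6 of 14 stellate markers that were called were higher, against 12% of all genes, and the part of these cells in the result was not tested.

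**Figure D2:**
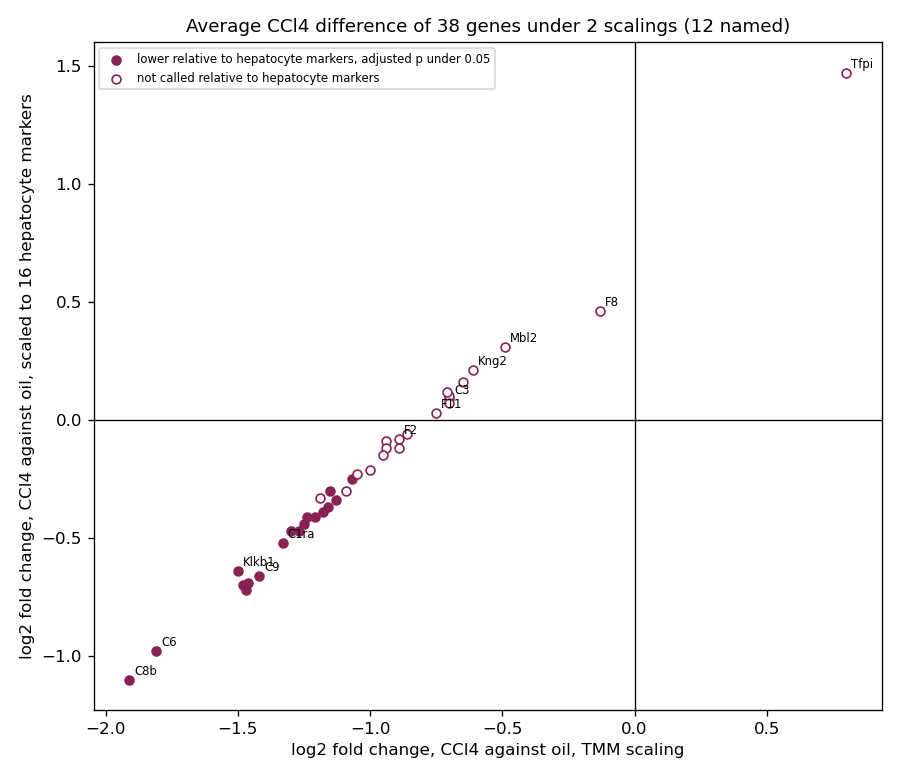
Average CCl4 log2 fold change of 38 genes under TMM (horizontal) and scaled to 16 hepatocyte markers (vertical); Susd4, at -6.31 and -5.49, is off the scale. C8b and C6 are at the lower left, lower on both scales, and genes near -0.7 under TMM, such as C3 and F11, are near 0 relative to hepatocyte markers.

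The 39 transcripts together took 1.3% to 2.22% of all TPM in mineral oil libraries and 0.958% to 1.98% in CCl4 libraries, and the groups overlapped. WT mineral oil replicate 1 was the lowest of the mineral oil libraries and WT CCl4 replicate 1 the highest of the CCl4 libraries. Set against the summed TPM of the hepatocyte markers, the 39 genes stood at 12.3% to 19.1% in mineral oil and at 9.81% to 11.9% in CCl4. On that measure every mineral oil library was above every CCl4 library, including WT mineral oil replicate 1 at 14.6%. A sum gives abundant markers such as Alb (22200 to 71900 TPM) more weight than the geometric mean used for scaling. Its median was 140000 TPM in mineral oil and 123000 in CCl4. The highest percentage, 19.1%, was in ΔEGFR mineral oil replicate 1, where the sum was lowest (80400 TPM).

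**Figure D3:**
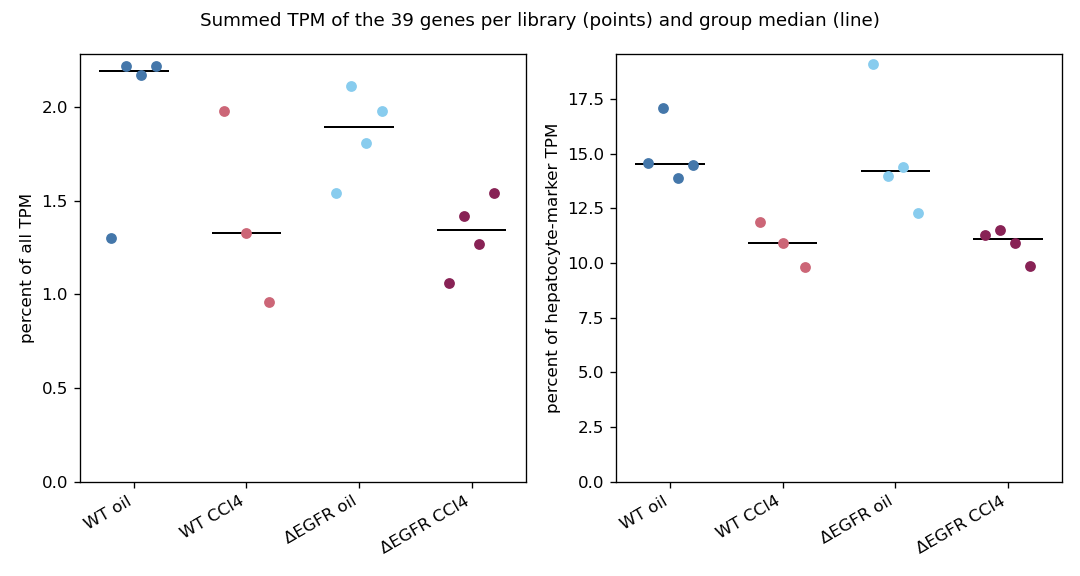
Summed TPM of the 39 genes per library (points) and the median of each group (lines), as a percent of all TPM (left) and of the summed TPM of 16 hepatocyte markers (right). The left panel shows overlap between treatments, and in the right panel the CCl4 libraries, at most 11.9%, lie below the mineral oil libraries, at least 12.3%.

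In WT 18 of the 39 were lower and 0 higher (7.2% of all genes lower, 5.31% higher), with a median of -1.08. In ΔEGFR 18 were lower and 0 higher (2.38% lower, 1.77% higher), with a median of -1.03. By threshold 15 genes were lower in both, 3 in WT alone (F7, F10 and F13b) and 3 in ΔEGFR alone (C8a, C9 and Cpb2), a difference the interaction test called for none of them, and 14 of the 18 called in neither were lower in the average. The counts of single genotypes rested on few libraries. The WT count went to 6 without WT CCl4 replicate 3, 7 without WT CCl4 replicate 2, 10 without WT mineral oil replicate 2 or 3 and 29 without WT mineral oil replicate 1. The share of all genes called lower in WT was then 1.4%, 2.16%, 3.19%, 3.27% and 14.2%, in that order. The ΔEGFR count went to 3 without ΔEGFR CCl4 replicate 1 or 2 or ΔEGFR mineral oil replicate 4, and to 4 without ΔEGFR CCl4 replicate 3. It was 5 without ΔEGFR mineral oil replicate 1 or 2, 8 without WT CCl4 replicate 2, 9 without WT mineral oil replicate 4 and 27 without WT mineral oil replicate 1. The share of all genes called lower in ΔEGFR ran from 0.227% without ΔEGFR CCl4 replicate 2 to 6.48% without WT mineral oil replicate 1. In all of these fits the median over the 39 genes lay between -1.32 and -0.80. Within the lower depth range, WT libraries gave 0 called of 39 (3 mineral oil against 2 CCl4; edgeR called 0 of all genes), although the median was -1.01 and 33 genes had an unadjusted p under 0.05. Within the higher range, ΔEGFR libraries gave 3 called lower, against 0.29% of all genes, and a median of -1.05.

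**Figure D4:**
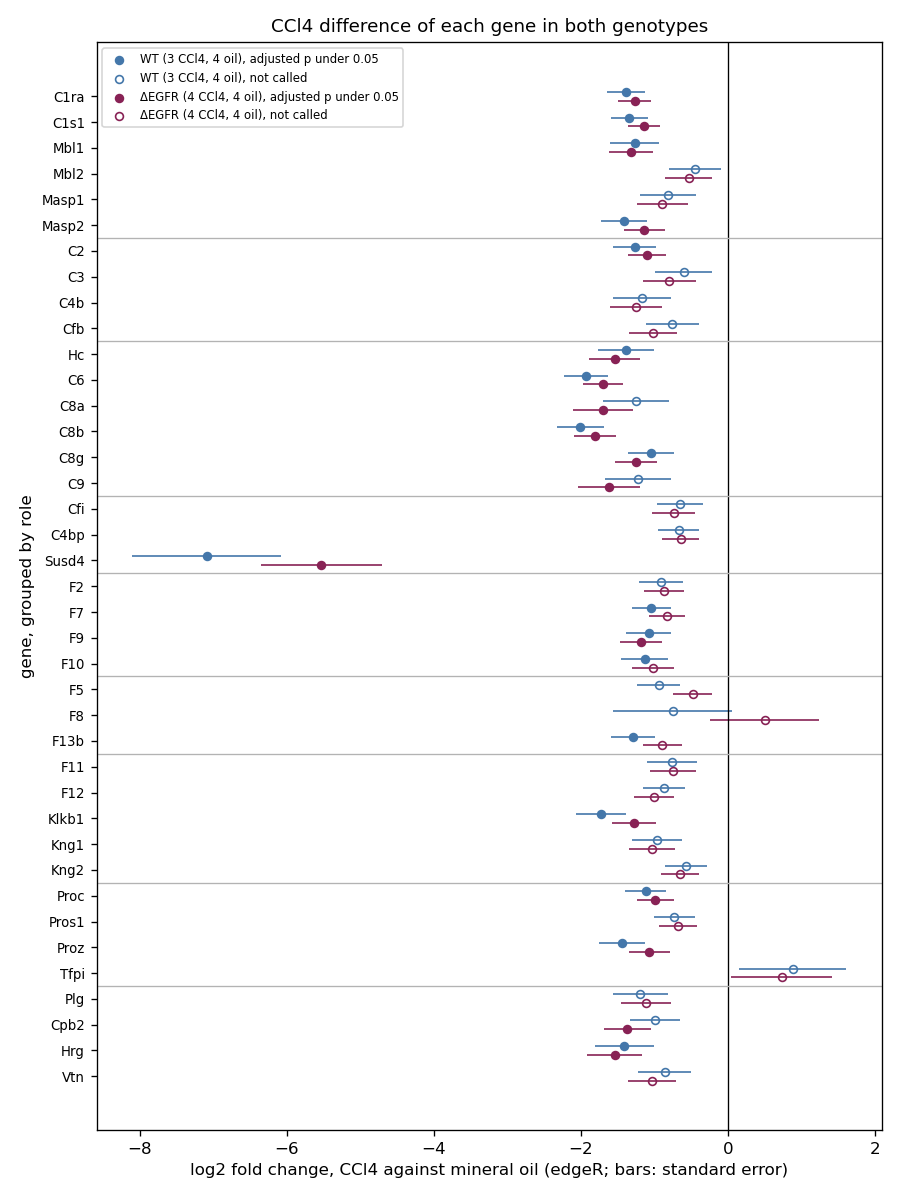
Log2 fold change of CCl4 against mineral oil (horizontal, with standard error bars) for each gene in WT and ΔEGFR; filled points passed an adjusted p of 0.05. Most genes lie between -2 and -0.4 in both genotypes, Susd4 lies far to the left, and Tfpi lies to the right of 0 in both.

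The pore genes had the lowest averaged median of the roles, a difference between roles that was not tested. It was close to that of the recognition genes in WT (-1.32 against -1.31) and lower in ΔEGFR (-1.66 against -1.14). The 6 pore genes, Hc (C5), C6, C8a, C8b, C8g and C9, were all lower, with a median log2 fold change of -1.47 under TMM and -0.70 relative to hepatocyte markers. C6, which joins C5b to start the pore, measured 318, 485, 567 and 556 CPM in the WT mineral oil libraries and 168, 117 and 96.4 in WT CCl4. In ΔEGFR it measured 465, 395, 338 and 366 CPM in mineral oil and 79.4, 152, 157 and 93.9 in CCl4. The highest CCl4 library lay well under the lowest mineral oil library. C6 fell 3.51-fold on average (log2 fold change -1.81 ± 0.20 SE, adjusted p = 0.000223), to -0.98 on the hepatocyte scale. By genotype it was -1.93 ± 0.30 (SE) in WT and -1.70 ± 0.27 (SE) in ΔEGFR.

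C8b encodes the beta chain of C8, which anchors the other C8 chains to the growing pore. It stood at 330, 559, 702 and 417 CPM in WT given mineral oil and at 173, 113 and 88.2 in WT given CCl4. In ΔEGFR the values were 425, 363, 356 and 462 CPM with mineral oil and 70.7, 108, 133 and 147 with CCl4. Treatments did not overlap, and C8b fell 3.75-fold (-1.91 ± 0.22 SE, adjusted p = 0.000236), or by 1.10 on the log2 scale relative to hepatocyte markers. C6 and C8b were called in both genotypes under all 25 other settings of this kind. Among the settings added after the data were seen, the WT call was missed within the lower depth range (C6 -1.92, adjusted p = 0.0532, and C8b -1.97, adjusted p = 0.0587), and the ΔEGFR call of C6 was missed relative to hepatocyte markers (-0.92, adjusted p = 0.0643).

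Hc, the mouse gene of C5, fell 2.76-fold (-1.46 ± 0.26 SE, adjusted p = 0.00184). It was 1120 to 2080 CPM in mineral oil and 277 to 1020 in CCl4, with no overlap. C8a fell 2.78-fold and C8g 2.22-fold. C9, the unit that forms the ring of the pore, was 479 to 1170 CPM in mineral oil and 131 to 603 in CCl4, where the ranges overlapped through WT mineral oil replicate 1 and WT CCl4 replicate 1. It fell 2.68-fold (-1.42 ± 0.31 SE, adjusted p = 0.00532).

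**Figure D5:**
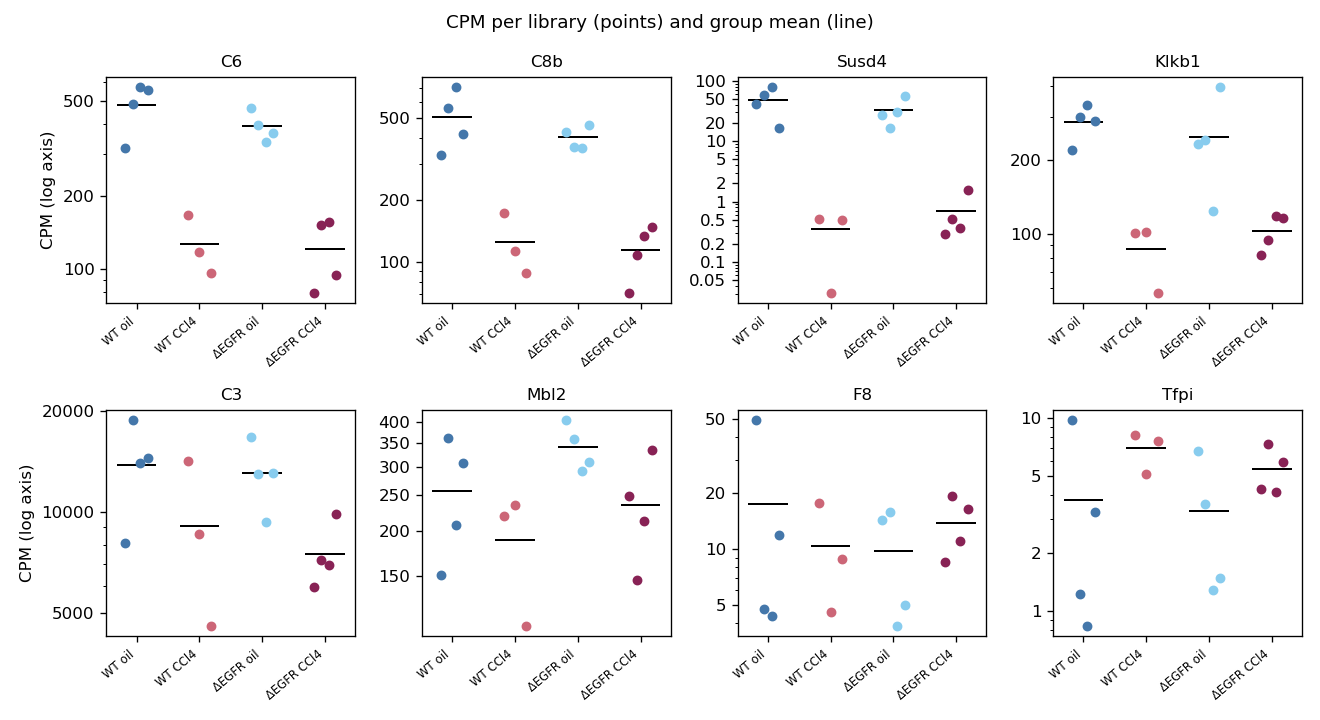
CPM of 8 genes in each library (points, log axis) with the group mean (line). For C6, C8b and Susd4 every CCl4 point is under every mineral oil point, and Klkb1 has a low ΔEGFR mineral oil library. C3, Mbl2 and F8 overlap between treatments, and Tfpi shows no reduction.

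Among the recognition genes, 5 of 6 were lower. C1ra and C1s1 encode the proteases C1r and C1s of the first complement component. C1ra measured 363, 553, 605 and 570 CPM in WT given mineral oil, 269, 196 and 135 in WT given CCl4, 522, 515, 399 and 546 in ΔEGFR mineral oil and 157, 198, 228 and 240 in ΔEGFR CCl4. Its treatments did not overlap, and it fell 2.51-fold (-1.33 ± 0.17 SE, adjusted p = 0.000405). C1s1, the neighbouring gene, was 390 to 636 CPM against 150 to 290 and fell 2.36-fold (-1.24 ± 0.17 SE, adjusted p = 0.000458). Masp2, the protease that cuts C4 in the lectin route, fell 2.42-fold (-1.27 ± 0.21 SE, adjusted p = 0.00122), from 147 to 264 CPM in mineral oil to 55.8 to 132 in CCl4.

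Of the 2 mannose-binding lectins, Mbl1 was called lower and Mbl2 was not. Mbl1 fell 2.46-fold (-1.30 ± 0.23 SE, adjusted p = 0.00164). Mbl2 measured 151, 360, 207 and 308 CPM in WT given mineral oil, 220, 236 and 109 in WT given CCl4, 403, 358, 292 and 310 in ΔEGFR mineral oil and 249, 146, 212 and 335 in ΔEGFR CCl4. Its treatments overlapped widely, and its value was -0.49 ± 0.24 (SE, adjusted p = 0.138), or 0.31 relative to hepatocyte markers. The difference between Mbl1 and Mbl2 was not tested. Masp1 was lower (-0.86 ± 0.26 SE, adjusted p = 0.0275), but lost the call without scaling factors and in limma on TPM. It also lost it without any 1 of 7 libraries, namely WT CCl4 replicates 2 and 3, WT mineral oil replicate 2, ΔEGFR CCl4 replicates 3 and 4 and ΔEGFR mineral oil replicates 2 and 4 (adjusted p 0.0503 to 0.0968 for Masp1). C1ra and C1rb, C1s1 and C1s2, C4b and C4a, and Kng1 and Kng2 are close copies whose reads RSEM may have divided between them, so the split within each pair is uncertain. Mbl1 and Mbl2 are related genes, and whether they share reads was not examined.

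Of the 4 genes that build the enzymes splitting C3, 3 were lower. C2 measured 113, 224, 201 and 187 CPM in WT given mineral oil, 109, 60.1 and 55.9 in WT given CCl4, 161, 122, 97.8 and 177 in ΔEGFR mineral oil and 56.9, 74.5, 59.9 and 69.3 in ΔEGFR CCl4. Only WT CCl4 replicate 1 reached into the range of the mineral oil libraries. C2 fell 2.27-fold (-1.19 ± 0.20 SE, adjusted p = 0.00134). C4b fell 2.31-fold (-1.21 ± 0.26 SE, adjusted p = 0.00543). Cfb, which encodes factor B of the alternative route and lies next to C2, fell 1.85-fold (-0.89 ± 0.24 SE, adjusted p = 0.0168), and lost the call without scaling factors and in limma on TPM.

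C3 itself, where all routes meet, was the most abundant of the 39 per length, with a median of 3420 TPM in mineral oil. It measured 8100, 18800, 14000 and 14500 CPM in WT given mineral oil, 14200, 8590 and 4570 in WT given CCl4, 16800, 13000, 9320 and 13100 in ΔEGFR mineral oil and 5960, 7200, 6950 and 9900 in ΔEGFR CCl4. WT CCl4 replicates 1 and 2 and ΔEGFR CCl4 replicate 4 were within the mineral oil range, whose lowest library was WT mineral oil replicate 1. Its difference was -0.70 ± 0.27 (SE, adjusted p = 0.0676), and it passed the threshold without WT CCl4 replicate 1 (adjusted p = 0.0228 for C3), without WT mineral oil replicate 1 (adjusted p = 0.0241), in DESeq2 and with a covariate for depth range. Relative to hepatocyte markers C3 was at 0.09 (adjusted p = 0.565).

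The 3 complement inhibitors were lower, and 1 of them by far more than any other gene here. Susd4 encodes a membrane protein with sushi domains that restrains complement activation. It measured 41.6, 59.2, 77.4 and 16.5 CPM in WT given mineral oil and 0.519, 0.0307 and 0.498 in WT given CCl4. In ΔEGFR it measured 26.9, 16.3, 30.6 and 55.2 CPM in mineral oil and 0.292, 0.521, 0.37 and 1.58 in CCl4. Every mineral oil library was above every CCl4 library, also in TPM, at 8.69 to 35.6 against 0.06 to 0.91. Susd4 fell 79.4-fold (-6.31 ± 0.66 SE, adjusted p = 0.000183), and it was called in both genotypes under all 25 other settings of this kind. Within the lower depth range in WT it stood at -7.60 (adjusted p = 0.064). The fold is imprecise because CCl4 levels were close to 0, and the log2 value ran from -6.65 to -3.72 over the 24 other settings.

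Cfi, the protease that inactivates C3b and C4b, was 452 to 817 CPM in mineral oil and 235 to 579 in CCl4 (-0.70 ± 0.21 SE, adjusted p = 0.0266). C4bp, its cofactor for C4b, was 388 to 795 and 274 to 590 (-0.65 ± 0.19 SE, adjusted p = 0.0204). Both ranges overlapped, and both calls were lost without scaling factors, in limma on TPM and without WT CCl4 replicate 3. The Cfi call was also lost without WT CCl4 replicate 2, ΔEGFR CCl4 replicate 2 or ΔEGFR mineral oil replicate 4. Relative to hepatocyte markers Cfi was at 0.10 and C4bp at 0.16, neither called.

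The 4 vitamin K-dependent clotting factors were lower, with a median of -1.01. F9, the gene of factor IX, measured 120, 218, 196 and 177 CPM in WT given mineral oil, 113, 84.7 and 54.2 in WT given CCl4, 176, 157, 130 and 201 in ΔEGFR mineral oil and 45.3, 61.9, 80.7 and 105 in ΔEGFR CCl4. The treatments did not overlap, though WT mineral oil replicate 1 and WT CCl4 replicate 1 lay close together. F9 fell 2.19-fold (-1.13 ± 0.21 SE, adjusted p = 0.00249). F7, which starts clotting with tissue factor, fell 1.92-fold (-0.94 ± 0.18 SE, adjusted p = 0.0028), and F10, the protease that makes thrombin, fell 2.11-fold (-1.07 ± 0.21 SE, adjusted p = 0.00338). F2, prothrombin, was 1190 to 2250 CPM in mineral oil and 597 to 1350 in CCl4 and fell 1.85-fold (-0.89 ± 0.20 SE, adjusted p = 0.00682). In limma on TPM its value was -0.38 and the call was lost (adjusted p = 0.0919 and 0.0942 with pseudocounts of 0.1 and 1). Relative to hepatocyte markers F9 (-0.34) and F10 (-0.25) were lower and F7 (-0.09) and F2 (-0.08) were not called.

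Of the cofactors and the crosslinking factor, F13b and F5 were lower. F13b carries the crosslinking enzyme factor XIII in plasma and fell 2.13-fold (-1.09 ± 0.20 SE, adjusted p = 0.00234), from 118 to 200 CPM to 49.5 to 125. F5, the cofactor of factor Xa, fell 1.64-fold (-0.71 ± 0.20 SE, adjusted p = 0.0175), and lost the call without WT CCl4 replicate 2 or 3, without scaling factors and in limma on TPM.

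F8, the cofactor of factor IXa, gave no such difference. It measured 49.1, 4.78, 4.37 and 11.9 CPM in WT given mineral oil, 17.8, 4.58 and 8.84 in WT given CCl4, 14.4, 15.9, 3.87 and 5.02 in ΔEGFR mineral oil and 8.55, 19.2, 11.1 and 16.4 in ΔEGFR CCl4. The highest value by far was in WT mineral oil replicate 1, which also held the highest endothelial marker level of the mineral oil libraries (492 TPM). That library was the highest of them in macrophage (2270 TPM) and neutrophil (5410 TPM) markers too, and a relation to F8 was not tested. The averaged difference was -0.13 ± 0.54 (SE, adjusted p = 0.884), and without WT mineral oil replicate 1 it was 0.53. This average joins unlike values, as the group mean went from 17.5 to 10.4 CPM in WT and from 9.8 to 13.8 in ΔEGFR.

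The contact system starts clotting on charged surfaces and releases bradykinin, and its 5 genes were all lower. Klkb1, plasma prekallikrein, measured 221, 300, 335 and 288 CPM in WT given mineral oil, 101, 102 and 57.5 in WT given CCl4, 232, 242, 124 and 396 in ΔEGFR mineral oil and 82.3, 94.3, 118 and 116 in ΔEGFR CCl4. The treatments did not overlap, although ΔEGFR mineral oil replicate 3 came close to the CCl4 range. Klkb1 fell 2.82-fold (-1.50 ± 0.23 SE, adjusted p = 0.000819), and was also lower relative to hepatocyte markers (-0.64, adjusted p = 0.00364). F11, its neighbour in the genome and a related protease, was at -0.75 ± 0.23 (SE, adjusted p = 0.0267) and at 0.03 relative to hepatocyte markers. The F11 call was lost in limma on TPM, without scaling factors and without WT CCl4 replicate 2, WT CCl4 replicate 3 or ΔEGFR mineral oil replicate 4.

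F12, which starts the contact system, fell 1.92-fold (-0.94 ± 0.20 SE, adjusted p = 0.00463), and lost the call in limma on TPM, at -0.43 and -0.42 (adjusted p = 0.0625 and 0.0626 with pseudocounts of 0.1 and 1). Kng1, a kininogen that carries bradykinin, fell 2-fold (-1.0 ± 0.23 SE, adjusted p = 0.00722), from 1450 to 2720 CPM to 622 to 1610. Kng2, its close copy next to it, was 149 to 301 CPM and 90.2 to 209 (-0.61 ± 0.19 SE, adjusted p = 0.0332). The Kng2 call was the least firm of the 35, and held under 9 of the 24 other settings.

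Of the anticoagulants, Proz, Proc and Pros1 were lower. Proz, protein Z, a cofactor in the inhibition of factor Xa, measured 304, 556, 528 and 488 CPM in WT given mineral oil, 215, 196 and 108 in WT given CCl4, 430, 468, 327 and 549 in ΔEGFR mineral oil and 141, 200, 214 and 290 in ΔEGFR CCl4. Every mineral oil library was above every CCl4 library. Proz fell 2.39-fold (-1.25 ± 0.21 SE, adjusted p = 0.00132). Proc, protein C, which inactivates factors Va and VIIIa, was 307 to 566 CPM against 127 to 292 with no overlap and fell 2.07-fold (-1.05 ± 0.19 SE, adjusted p = 0.0019). Pros1, its cofactor protein S, fell 1.63-fold (-0.70 ± 0.19 SE, adjusted p = 0.0162) and lost the call without scaling factors and in limma on TPM.

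Tfpi, the inhibitor of the first clotting step, was the one gene with a fitted value above 0. It measured 9.74, 1.23, 0.838 and 3.26 CPM in WT given mineral oil, 8.21, 5.13 and 7.6 in WT given CCl4, 6.79, 3.61, 1.28 and 1.49 in ΔEGFR mineral oil and 4.32, 7.32, 4.17 and 5.96 in ΔEGFR CCl4. Mineral oil libraries spread widely and CCl4 libraries lay close together at the upper end. The averaged value was 0.80 ± 0.50 (SE, adjusted p = 0.255). Without WT mineral oil replicate 1, the highest library, it was 1.35 and called higher (adjusted p = 0.0198), as it was in limma on TPM. Over the 24 other settings its adjusted p ran from 0.00658 to 0.383. Tfpi and F8 were also the least abundant of the 39 per length, at medians of 1.29 and 1.45 TPM in mineral oil.

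The last 4 genes act on clots and matrix, and all were lower. Hrg, a plasma protein that binds heparin and plasminogen, measured 839, 1780, 1560 and 1500 CPM in WT given mineral oil, 847, 472 and 279 in WT given CCl4, 1610, 1220, 990 and 1520 in ΔEGFR mineral oil and 259, 443, 484 and 653 in ΔEGFR CCl4. WT mineral oil replicate 1 and WT CCl4 replicate 1 had nearly the same level, and the other 13 libraries separated by treatment. Hrg fell 2.78-fold (-1.48 ± 0.27 SE, adjusted p = 0.00225) and was lower relative to hepatocyte markers too (-0.70, adjusted p = 0.00277).

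Plg, plasminogen, the precursor of the enzyme that dissolves fibrin, was 2110 to 4160 CPM in mineral oil and 860 to 2300 in CCl4 and fell 2.23-fold (-1.16 ± 0.25 SE, adjusted p = 0.00539). Cpb2, which encodes an inhibitor of fibrinolysis, fell 2.27-fold (-1.18 ± 0.23 SE, adjusted p = 0.00326). Vtn, vitronectin, an adhesion protein that also binds the complement pore, fell 1.93-fold (-0.95 ± 0.25 SE, adjusted p = 0.0132). In limma on TPM its value was -0.45 and the call was lost (adjusted p = 0.0906 and 0.0975 with pseudocounts of 0.1 and 1).

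In CPM, 12 of the 39 genes had every mineral oil library above every CCl4 library, against 2.83% of all tested genes. They were C1ra, C1s1, Masp2, Hc, C6, C8b, Susd4, F7, F9, Klkb1, Proc and Proz, and in TPM they were 4 (C1ra, C6, C8b and Susd4). For TPM the share over all genes was not computed, so these 4 have no background to be read against. The genes also shared the order of libraries within a group. WT CCl4 replicate 1 was the highest of its 3 libraries for 37 genes and WT CCl4 replicate 3 the lowest for 33. ΔEGFR mineral oil replicate 3 was the lowest of its 4 for 38, ΔEGFR CCl4 replicate 1 the lowest of its 4 for 35 and ΔEGFR CCl4 replicate 4 the highest for 32. In the CCl4 groups the libraries highest in the 39 genes were lowest in macrophage markers, at 3380 TPM in WT CCl4 replicate 1 and 3730 TPM in ΔEGFR CCl4 replicate 4. At the other end, WT CCl4 replicate 3 was the highest of its group in these markers (12700 TPM). ΔEGFR CCl4 replicate 1 was not, at 6000 TPM against 10700 in replicate 2 and 6170 in replicate 3. The part of these cells in the result was not tested.

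No difference between the genotypes was detected in any of the 39 genes. In edgeR 0 of 39 were called for ΔEGFR against WT in mineral oil (0% of all genes called), in CCl4 (0%), averaged over treatments (0%) or in the interaction of genotype and CCl4 (0%), and DESeq2 and limma called 0 of the 39 as well. None of the 39 had an unadjusted p under 0.05 in any of these 4 tests, against 1197, 411, 879 and 568 of the 17975 genes. Averaged over treatments, the genotype difference ran from -0.47 for C8a to 0.37 for Mbl2, with a median of -0.06. For 35 of the 39 its 95% interval lay within a 2-fold change in either direction. That held for 34 in mineral oil and 29 in CCl4, and for 18 in the interaction, so differences of 2-fold in the response to CCl4 were within the error for the other genes. Depth range differed between the genotypes, and the intervals above came from the fit without it. With a covariate for depth the median genotype difference moved from -0.09 to 0.36 in mineral oil and from -0.06 to 0.33 averaged over treatments. In that average 4 of the 39 rather than 26 were fitted lower. There 2 had an unadjusted p under 0.05 in edgeR, and 0 were called.

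The lowest p of the 39 in the interaction was that of Susd4, whose CCl4 difference was -7.09 ± 1.01 in WT and -5.53 ± 0.82 in ΔEGFR (interaction 1.56 ± 1.04 SE, edgeR adjusted p = 1). F5 came next, at -0.94 ± 0.29 in WT and -0.48 ± 0.27 in ΔEGFR (interaction 0.45 ± 0.39 SE, edgeR adjusted p = 1). C8a had the largest genotype difference in CCl4 in the downward direction, -0.70 ± 0.43 (SE, adjusted p = 1). Its CCl4 libraries measured 835, 367 and 252 CPM in WT and 126, 276, 338 and 457 in ΔEGFR, which overlap.

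Other genes of complement were called in both directions. Of 29 tested, 9 were lower and 6 higher with CCl4, averaged over genotypes, against 15.1% and 12% of all genes, and their median was -0.06. Those lower included Serping1, the C1 inhibitor, from 702 to 1470 CPM to 267 to 821 (-1.34 ± 0.26 SE, adjusted p = 0.00313), and Cd59b (-1.96) and Cd59a (-0.99), which block the pore on cell surfaces, and C4a (-2.18). Those higher included C3ar1, the receptor for C3a, from 0.17 to 9.97 CPM to 37.2 to 137 (4.04 ± 0.71 SE, adjusted p = 0.00173). The integrin gene Itgax (3.74), the ficolin gene Fcnb (3.25) and C1qc (2.53) were higher too. Levels of Fcnb were low and overlapped, at 0.0074 to 0.332 CPM in mineral oil and 0.127 to 3.46 in CCl4. Cd59b was also low, at 1 to 2.56 CPM in mineral oil and 0.349 to 0.544 in CCl4. C4a overlapped, at 16.1 to 155 CPM in mineral oil and 5.17 to 31.6 in CCl4. C1qc is also one of the 19 macrophage markers, and the 3 C1q genes were all higher while C1ra and C1s1, whose products bind to C1q, were lower.

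Of 33 other clotting genes, 11 were lower and 6 higher, against 15.1% and 12% of all genes, and their median was -0.18. Lower were Serpinc1 (-0.94), which encodes antithrombin, Serpina10 (-0.84), the inhibitor that protein Z assists, Fgg (-1.01), a fibrinogen chain, and Serpine2 (-2.63). Higher were Vwf (2.96), von Willebrand factor, the plasminogen activators Plat (4.13) and Plau (4.02), and Serpinb2 (3.57), an inhibitor of Plau. Levels of Serpinb2 were low and overlapped, at 0 to 0.845 CPM in mineral oil and 0.0571 to 5.68 in CCl4. Those of Serpine2 overlapped too, at 1.27 to 21.4 CPM in mineral oil and 0.522 to 3.21 in CCl4. Vwf reached 2.52 to 6.38 CPM in CCl4 from 0.18 to 1.06, and Plg, the substrate of both activators, was among the genes that fell. Of 9 genes for the vitamin K cycle and the secretion of clotting factors, 3 were lower and 1 higher, against 15.1% and 12% of all genes. Furin (-0.60), Vkorc1 (-0.57) and Vkorc1l1 (-0.37) were lower and Calu (0.46) higher, and the median of the 9 was -0.14.

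Transcription factors that are known to drive hepatocyte secretory genes were mostly lower in the average. Of 20 tested, 14 were lower and 0 higher, against 15.1% and 12% of all genes. In WT 8 were called lower, against 7.2% of all genes, and in ΔEGFR 2, against 2.38%. The averaged median of the 20 was -0.85, near the -0.79 of the hepatocyte markers. Hnf4a was 515 to 1170 CPM in mineral oil and 346 to 660 in CCl4 (-0.92 ± 0.19 SE, adjusted p = 0.00432). Stat3, which carries the acute-phase signal of interleukin 6, was also lower (-0.73 ± 0.12 SE, adjusted p = 0.00109), as were Onecut2 (-0.92) and Nr1i3 (-1.16). Their relation to the 39 genes was not tested.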

How the data were processed

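Per the labels' protocols, hepatocyte RNA went into a strand-marking mRNA library kit. Per the submitters' processing notes, STAR 2.7.8a, RSEM 1.3.0 and build GRCm39 were used; the annotation release and strand setting are not given in the sources used here. The authors deposited RSEM expected counts and TPM per gene and library. Rounded expected counts entered edgeR 4.0.16 under R 4.3.3 (filterByExpr with minimum count 10 and minimum total 15, TMM, robust quasi-likelihood fit of 4 group means to 15 libraries, Benjamini-Hochberg over 17975 genes, adjusted p under 0.05). The biological coefficient of variation was 50.9%. CPM values are TMM-scaled, and levels are compared between genes only in the deposited TPM.

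The 39 genes and all lists were chosen with earlier results of these data known. Genes named in full were, per role, up to 3 called genes with the lowest averaged CCl4 p, the gene with the largest p, and the 2 with the lowest interaction p. From other lists up to 4 per direction were named. A few more, such as Mbl1, Masp1, F11, C8a and C8g, were named after their values were seen. Comparisons of CCl4 in each genotype contrast the means of different libraries, whereas the averages reuse them. The comparisons in WT and in ΔEGFR nevertheless come from the same fit to all libraries and share its estimate of spread. Their counts of called genes are therefore not independent, and the ΔEGFR count changed when some WT libraries were left out. Replicates were numbered in order of deposit.

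Gene names were joined by Ensembl ID from a table of another mouse build (52029 IDs named, 91.4%, and 4924 unnamed). Promoters came from a RefSeq table on GRCm38.p6, and no coordinates were moved between builds. Alternatives were DESeq2 1.42.0, RLE, upper-quartile and no scaling factors, limma 3.58.1 on log2(TPM + 1) and log2(TPM + 0.1), no filter, a filter of 1 CPM in 3 libraries, only the groups compared, a covariate for depth range (split at 80 M counts) and leaving out each library. Scaling to hepatocyte markers and fits within a depth range were added after the data were seen. The scripts were tested on simulated data.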

Additional observations from a re-analysis of the deposited data

Results flagged for a closer look

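Within groups of 4 libraries, 117 combinations of gene and group were searched for a library whose gap to the nearest other, as a share of the group's range, was over 0.829. There were 3 of the 117, a smaller share than the about 1 in 20 that chance gives, and the combinations are not independent. F8 was 49.1 CPM in WT mineral oil replicate 1 and 4.37 to 11.9 in the other 3 libraries of that group (gap 0.832 of the range). F12 was 337 CPM in the same library and 633 to 658 in the other 3 (0.921). Kng2 was 209 CPM in ΔEGFR CCl4 replicate 4 and 140 to 146 in the other 3 (0.914).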

How the results depend on the processing

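No paired analysis was possible because the labels tie no library of one group to one of another. Genes called lower in WT, 18, numbered 5 when only the groups compared were fitted, 9 scaled to hepatocyte markers, 0 within libraries under 80 M counts and 6 to 29 when 1 library was left out (higher 0 to 1). Of all genes, 7.2% were lower in WT, and 2.14%, 1.21%, 0% and 1.4% to 14.2% under these settings in turn. Genes lower in ΔEGFR, 18, numbered 28 in DESeq2, 29 with the depth covariate, 10 in limma with either pseudocount, 3 scaled to hepatocyte markers, 3 within libraries over 80 M counts and 3 to 27 when 1 library was left out. Of all genes, 2.38% were lower in ΔEGFR, and 6.06%, 5.55%, 0.79% to 0.879%, 0.284%, 0.29% and 0.227% to 6.48% under these settings in turn. The averaged 35 lower became 24 in limma with either pseudocount, 27 without scaling factors and 19 scaled to hepatocyte markers. Of all genes, 15.1% were lower in the average, and 3.42% to 3.55%, 4.91% and 2.16% under these settings in turn. In limma 1 gene, Tfpi, was called higher with either pseudocount, as it was on leaving out WT mineral oil replicate 1 (0 to 1 over left-out libraries). The averaged count stayed between 29 and 37 over left-out libraries (9.1% to 21.7% of all genes), and no setting gave a call of these genes for genotype or interaction. The causes were not tested. Signs that turned were these log2 values. Scaled to hepatocyte markers, WT gave Mbl2 0.43, C3 0.23, Cfb 0.05, Cfi 0.18, C4bp 0.24, F11 0.02, Kng2 0.28 and Pros1 0.07. ΔEGFR gave Mbl2 0.19, Cfi 0.01, C4bp 0.09, F5 0.28, F11 0.04, Kng2 0.13 and Pros1 0.08. The average gave Mbl2 0.31, C3 0.09, Cfi 0.10, C4bp 0.16, F5 0.12, F8 0.46, F11 0.03, Kng2 0.21 and Pros1 0.07. In limma, Mbl2 was 0.06 in WT and 0.02 in the average with either pseudocount, and F5 0.06 in ΔEGFR. With a pseudocount of 0.1 F8 was 0.06 in WT and 0.56 in the average, and with 1 it was 0.37 in the average. F8 was also 0.67 in WT within libraries under 80 M counts, -1.34 to 0.57 in WT over left-out libraries (0.57 without WT mineral oil replicate 1), and in the average 0.27 with the depth covariate, 0.25 without scaling factors and -0.39 to 0.53 over left-out libraries. Low levels limited precision: standard errors in the average were 0.66 for Susd4, close to 0 in CCl4, and 0.54 and 0.50 for F8 and Tfpi, the lowest of the 39 in TPM in mineral oil.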
